A study of Mus musculus with 12 samples.

Results

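The 10 genes described here form a compact panel of the hepatic antioxidant response, chosen by gene symbol: Nfe2l2, Nqo1, Gclc, Gclm, Hmox1, Txnrd1, Srxn1, Cat, Prdx3 and Gpx1. All 10 were measured, each by 1 probe set with a single gene annotation, among 19938 genes on the array. Their levels were read on 12 Affymetrix arrays of RNA from whole livers of 129Sv mice, which were 12 weeks old and had been fasted for 24 h. The mice were wild type or SIRT3KO, lacking the mitochondrial deacetylase SIRT3, and ate a standard diet or, from weaning, a high-fat Western diet in which fat made up 42%. Each of the 4 groups of genotype and diet had 3 arrays, and every group shared the strain, the age and the fast, so no fed liver was among them. The labels give neither the tissue distribution of the deletion nor whether animals were pooled. Nothing in them says which arrays were littermates or shared a day, so p-values measure the spread between these samples only.

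NRF2, the transcription factor encoded by Nfe2l2, is bound by KEAP1 and degraded in resting cells. Oxidants and electrophiles modify KEAP1, NRF2 then accumulates, and with small MAF proteins it binds antioxidant response elements near genes for glutathione synthesis, thioredoxin reduction, quinone reduction and haem breakdown. This control acts mainly on the protein, so the Nfe2l2 transcript is not a readout of NRF2 activity, whereas the transcripts of its targets are commonly used as one. Catalase, the mitochondrial peroxiredoxin PRDX3 and the glutathione peroxidase GPX1 remove peroxides and are also expressed at rest in liver. SIRT3 is known for deacetylating mitochondrial proteins, among them the superoxide dismutase SOD2, and loss of SIRT3 has been linked to mitochondrial oxidative stress. The question for these 10 genes was whether their transcripts were higher in livers without SIRT3, on either diet.

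The liver markers Alb, Ttr and Apoa1 were high on every array, Alb between 14.05 and 14.16 on the log2 scale. Sirt3 itself averaged 9.05 in wild type and 8.90 in knockout with the standard diet, and 9.18 and 8.76 with the high-fat diet (limma adjusted p = 0.661 and 1.00). Where its probes lie relative to the deleted part is not given in the sources used here, so it cannot check the labels. Knockout replicate 1 on the standard diet stood apart: the mean of 20 acute-phase genes was 12.06 there, against 10.41 and 10.44 on the other knockout arrays of that diet and 10.23 to 10.38 in wild type. The mean of 16 male-biased liver genes was 9.50 there and 10.47 and 10.38 on the other knockout arrays of that diet. All lay below the 10.71 to 11.04 of wild type. Of the 16 genes 0 were higher in the knockout, against 60.2% of all genes. An unadjusted p under 0.05 was found for 9, against 9.73% of all genes, and 0 were called in limma. The mean of 12 female-biased liver genes was 7.95 on knockout replicate 1 of the standard diet. It was 6.55 and 6.76 on the other knockout arrays of that diet and 6.62 to 6.77 in wild type. Of these 12 genes 9 were higher in the knockout, against 60.2% of all genes, and 0 were called. The part of these shifts in the results on the standard diet was not tested. Wild-type replicate 3 on the high-fat diet had the highest mean of 13 macrophage and Kupffer cell markers, 8.70, where the other arrays lay between 8.10 and 8.38. Leaving out such an array turned the direction of some member differences or moved their value by more than 1.5 times. The value without it is given below for several of these, but not for all. The values of the diets appear to come from separate normalization runs, which the labels do not state. A genotype comparison would then lie within a run and a diet comparison across runs, where the effects of diet and run cannot be told apart. In whole liver, fewer cells of a type and less RNA per cell cannot be told apart either.

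None of the 10 genes passed the test in any comparison. The threshold for a call was 0.05 on the limma p adjusted after Benjamini and Hochberg for the 19938 genes tested. Between knockout and wild type, the calls over all genes amounted to 0.00502% of genes on the standard diet (1 gene), 0% on the high-fat diet and 0% for the mean of both diets, so the count of 0 members is close to the background. Without adjustment, p was under 0.05 for 1 of 10 members on the standard diet, against 9.73% of all genes, for 0 of 10 on the high-fat diet, against 2.86%, and for 1 of 10 averaged over diets, against 6.64%. The member behind both counts was Srxn1, and it was lower in the knockout. The standard-diet count depended on single arrays: it lay between 0 and 3 when an array was left out in turn, against 4.92% to 19.5% of all genes. Without wild-type high-fat replicate 3, which enters through the shared variance, it was 3 of 10, Gclm and Srxn1 lower and Hmox1 higher, against 10.3% of all genes. It was 2 (Gclm and Srxn1) without knockout high-fat replicate 1, against 10.2% of all genes, and 0 without wild-type standard-diet replicate 2, against 6.35%. Without wild-type replicate 1 or knockout replicate 2 of the standard diet it was 1, Nqo1 in place of Srxn1, against 8.4% and 4.92%. Averaged over diets it was 1, Srxn1, whichever array was left out, against 4.41% to 13.1% of all genes. The median member difference, knockout minus wild type, was -0.03 on each diet on the log2 scale, beside 0.04 and -0.02 for all genes. Of the 10 members, 5 were above 0 on the standard diet and 3 on the high-fat diet, against 60.2% and 43.1% of all genes.

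**Figure D1:**
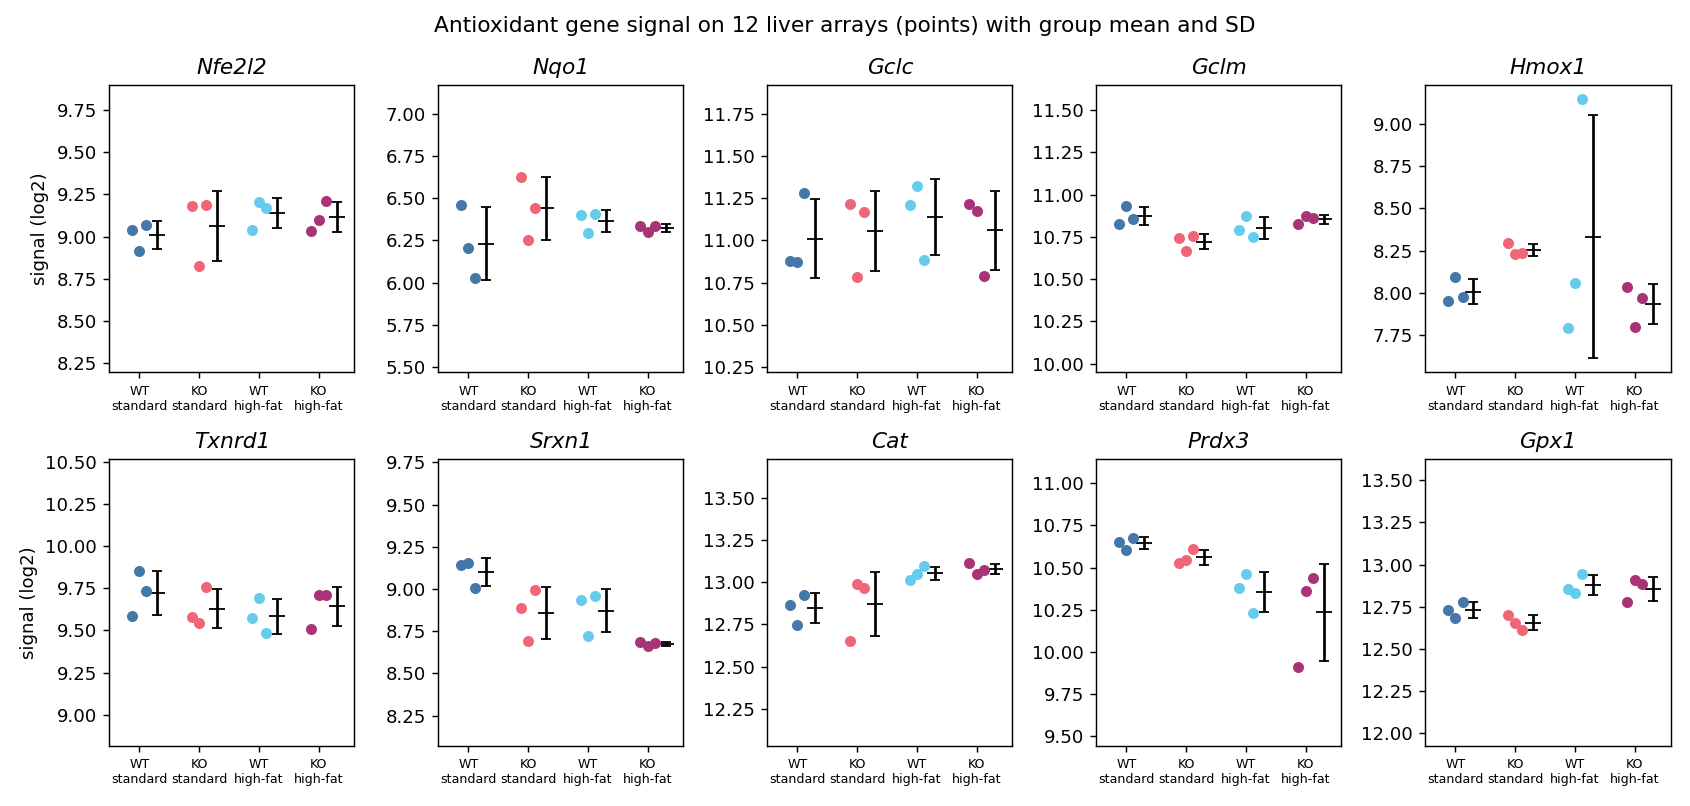
Level of each of the 10 genes (log2, vertical axis, the same span in every panel) on each array, by group of genotype and diet; points are arrays, and the ticks and bars beside them are group means and SD, 3 arrays a group. Srxn1 lies lower in knockout than in wild type on each diet, Hmox1 has 1 high array, at 9.15, and most other genes overlap between genotypes.

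The 95% intervals give the size of difference that these arrays leave room for. These intervals, which are not adjusted for the number of genes, had upper ends under 1.5-fold higher in the knockout for 9 of 10 members on the standard diet. The exception was Hmox1, whose interval reached 1.68-fold. When an array was left out in turn, its upper end ran from 1.37-fold, without wild-type high-fat replicate 3, to 1.83-fold, without wild-type standard-diet replicate 2. On the high-fat diet all 10 upper ends were under 1.5-fold, the highest 1.20-fold for Txnrd1, and averaged over diets the highest was 1.21-fold for Hmox1. No member's interval reached 2-fold higher in either diet.

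**Figure D2:**
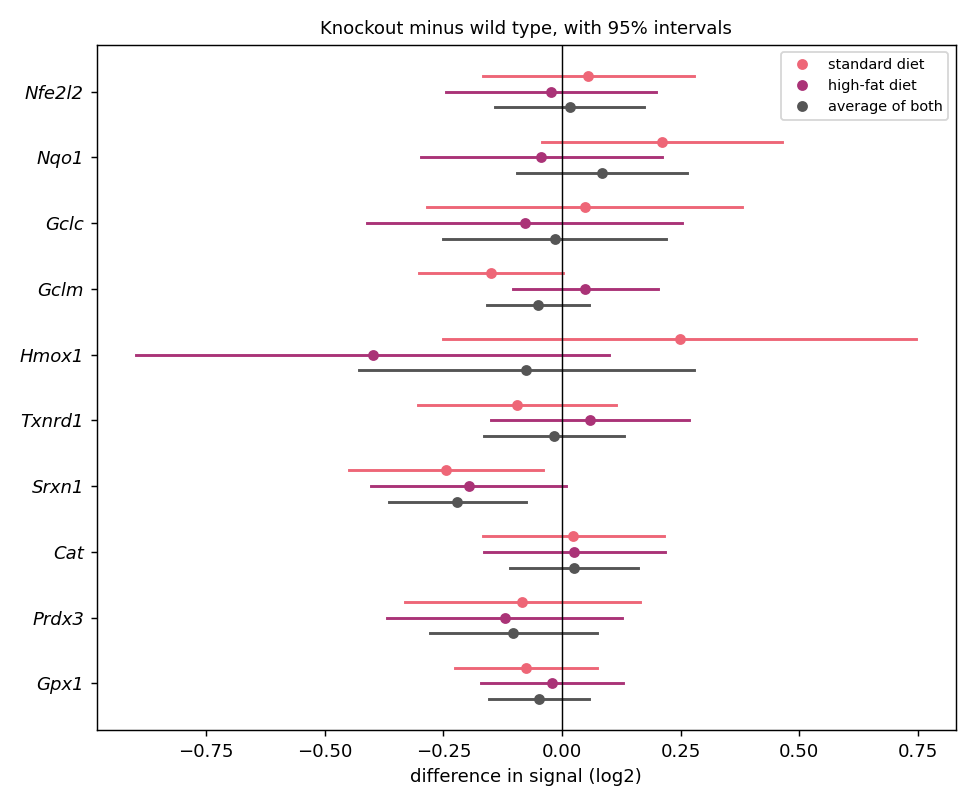
Knockout minus wild type for each of the 10 genes on the standard and the high-fat diet (log2, horizontal axis); points are limma estimates and bars their unadjusted 95% intervals, 3 arrays a group. On the standard diet the interval of Srxn1 lies below 0, those of the other 9 genes include 0, and on the high-fat diet all 10 include 0.

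Nfe2l2, the gene of NRF2 itself, had overlapping values in all 4 groups. On the standard diet it read 9.04, 8.91 and 9.07 in wild type and 9.18, 8.83 and 9.18 in knockout. The high-fat values were 9.04, 9.21 and 9.17 in wild type and 9.03, 9.10 and 9.21 in knockout. The genotypes overlapped on each diet, and the knockout included both the lowest and the highest standard-diet arrays. The difference was 0.06 (SE 0.104, limma adjusted p = 0.868) on the standard diet and -0.02 on the high-fat diet, where it was 0.02 without knockout replicate 1. Without knockout standard-diet replicate 1, the array with high acute-phase genes, the standard-diet difference was -0.003.

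Gclc and Gclm encode the catalytic and the modifier subunit of glutamate-cysteine ligase, the rate-limiting enzyme of glutathione synthesis, and are classical NRF2 targets. Gclc read 10.88, 10.87 and 11.28 in wild type and 11.22, 10.78 and 11.17 in knockout on the standard diet. With high-fat feeding the values were 11.21, 11.32 and 10.89 in wild type and 11.22, 11.17 and 10.79 in knockout. Every group spanned about the same range, and its SD was between 0.226 and 0.237 in all 4 groups. The genotype difference was 0.05 on the standard diet (SE 0.155, limma adjusted p = 0.931) and -0.08 on the high-fat diet. The first turned to -0.03 without knockout replicate 1 and also with each array centred on its median. The second was -0.21 without wild-type replicate 3 and -0.16 without knockout replicate 1, both of the high-fat diet.

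Gclm, the modifier subunit, was measured more tightly. It read 10.83, 10.93 and 10.85 in wild type and 10.74, 10.67 and 10.75 in knockout on the standard diet, and all knockout arrays lay below all wild-type arrays. Under the high-fat diet the gene stood at 10.79, 10.88 and 10.75 in wild type and 10.82, 10.87 and 10.86 in knockout, where the genotypes overlapped. The standard-diet difference was -0.15 (SE 0.0713, limma adjusted p = 0.516), and the high-fat difference was 0.05, and 0.02 without wild-type replicate 3. The standard-diet value, lower in the knockout, did not pass the test.

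Among the remaining NRF2 targets, Nqo1 encodes the quinone reductase often used as a marker of NRF2 activity. It read 6.46, 6.21 and 6.03 in wild type and 6.63, 6.25 and 6.44 in knockout on the standard diet. Its high-fat values were 6.40, 6.29 and 6.41 in wild type and 6.34, 6.30 and 6.34 in knockout. The genotypes overlapped on each diet. Its level was near the array medians, which lay between 6.34 and 6.47. The difference was 0.21 (SE 0.118, limma adjusted p = 0.557) on the standard diet, and 0.12 without knockout replicate 1, which was the highest array of all 12. The standard-diet difference was 0.13 with each array centred on its median and 0.12 with quantile normalization. On the high-fat diet it was -0.04, and -0.02 without wild-type replicate 3. The 1233 genes of smell, taste and pheromone receptors had mean signals of 4.30 to 4.50. On the standard diet 945 of them were higher in the knockout, against 60.2% of all genes, with a median difference of 0.10. With high-fat feeding 538 were, against 43.1%, with a median of -0.02. Whether Nqo1 shared this shift was not tested.

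Txnrd1, the cytosolic thioredoxin reductase, read 9.59, 9.85 and 9.73 in wild type and 9.58, 9.55 and 9.76 in knockout on the standard diet. High-fat livers gave 9.57, 9.69 and 9.48 in wild type and 9.51, 9.71 and 9.71 in knockout. The genotypes overlapped on each diet, and knockout minus wild type was -0.09 (SE 0.0976, limma adjusted p = 0.75) and 0.06. The second was 0.01 without wild-type replicate 3 and 0.12 without knockout replicate 1, both of the high-fat diet.

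Hmox1, which encodes the inducible haem oxygenase and is expressed in Kupffer cells as well as in stressed hepatocytes, had 1 array far above the others on the high-fat diet. On the standard diet it read 7.95, 8.09 and 7.97 in wild type and 8.30, 8.23 and 8.24 in knockout, and every knockout array lay above every wild-type array. The difference there was 0.25 (SE 0.234, limma adjusted p = 0.728), and 0.23 without knockout replicate 1. The high-fat values were 7.79, 8.06 and 9.15 in wild type and 8.03, 7.80 and 7.97 in knockout. The high value, 9.15, came from wild-type replicate 3, the array with the highest macrophage and Kupffer markers. The high-fat difference was -0.40 with that array (SE 0.234, limma adjusted p = 1.00) and 0.008 without it. The SD of Hmox1 was 0.718 in that group and between 0.037 and 0.12 in the others, and since the fit shares 1 variance per gene, the SE on the standard diet holds that spread too. Without wild-type high-fat replicate 3 the standard-diet difference was 0.25 with an SE of 0.0946 (unadjusted p = 0.0209 and adjusted p = 0.47 in limma, against an unadjusted p of 0.306 with it).

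Of the macrophage and Kupffer markers, 13 of 14 were measured. Their mean ranged from 8.10 to 8.35 in wild type and from 8.12 to 8.38 in knockout on the standard diet, and from 8.14 to 8.70 and from 8.14 to 8.24 on the high-fat diet. On the standard diet 12 of the 13 were higher in the knockout, against 60.2% of all genes, with a median difference of 0.08. On the high-fat diet 3 of 13 were, against 43.1% of all genes, with a median of -0.19. That count and median include wild-type replicate 3. The marker means there were 8.14, 8.16 and, in replicate 3, 8.70 in wild type, and 8.14, 8.24 and 8.16 in knockout. None of the 13 was called on either diet. Their part in the level of Hmox1 was not tested.

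**Figure D3:**
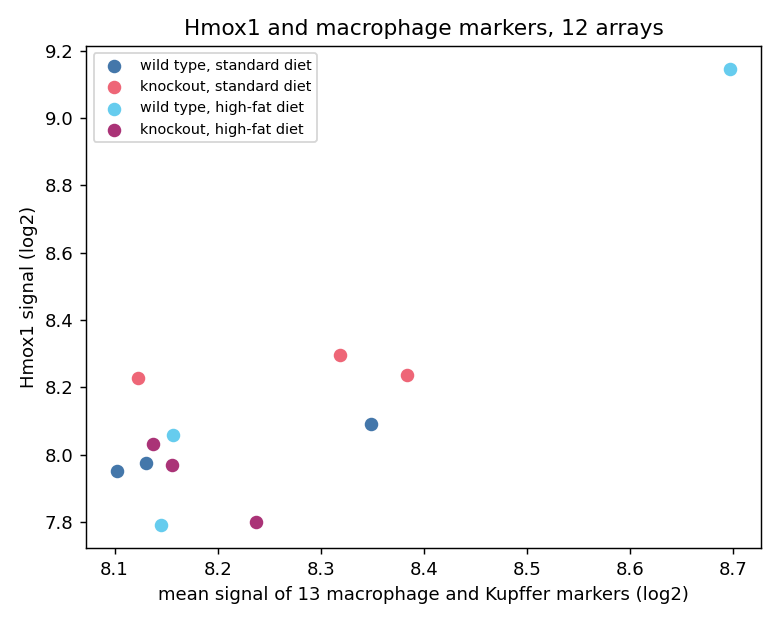
Level of Hmox1 (log2, vertical axis) against the mean of 13 macrophage and Kupffer markers (log2, horizontal axis), 1 point per array, coloured by genotype and diet. Wild-type replicate 3 on the high-fat diet lies alone at a marker mean of 8.70 and an Hmox1 level of 9.15, away from the other 11 arrays.

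Srxn1, which encodes sulfiredoxin, the enzyme that reduces over-oxidised peroxiredoxins back to their active form, was the member with the most regular genotype difference, and it was lower without SIRT3. On the standard diet it read 9.14, 9.15 and 9.01 in wild type and 8.89, 8.69 and 8.99 in knockout. With high-fat feeding the values were 8.93, 8.72 and 8.96 in wild type and 8.68, 8.66 and 8.68 in knockout. All knockout arrays lay below all wild-type arrays of the same diet, on the standard diet by a narrow gap between 8.99 and 9.01. Knockout minus wild type was -0.24 (SE 0.0958, 95% interval -0.45 to -0.04, limma adjusted p = 0.502) and -0.20 (SE 0.0958, 95% interval -0.40 to 0.01, limma adjusted p = 1.00). Averaged over diets the difference was -0.22 (SE 0.0677, 95% interval -0.37 to -0.08, unadjusted p = 0.00551 and adjusted p = 0.739 in limma), and its p ranked 106 among 19938 genes. It did not pass the test. It was -0.21 without knockout replicate 1 on the standard diet and wild-type replicate 3 on the high-fat diet, and it stayed negative in every alternative tried, from -0.26 to -0.18.

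Groups of arrays that do not overlap were common over the whole array, which sets the scale for the patterns of Gclm, Hmox1 and Srxn1. On the standard diet 3 of 10 members had genotypes that did not overlap, against 14.4% of all genes, and on the high-fat diet 1 of 10 (Srxn1), against 6.68%.

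The sequence around the start of Srxn1 is shown because Srxn1 is an NRF2 target that was lower here and because it holds letters of the antioxidant response element and of a variant of it. RefSeq promoters of the mouse build GRCm38.p6, covering 250 bases before to 50 bases after a start site, were at hand for 8 of the 10 members. The letters searched on both strands were TGACNNNGC, the core of the element, present in 12.4% of all 32851 promoters, and TGAGNNNGC, a variant added after the sequences were seen, present in 17.6%. Of all promoters, 27.8% held either. The 8 members have 10 promoters in that table, 3 of them of Txnrd1, and 4 of the 10 held a match, each of a different gene. The Srxn1 promoter, chr2:152105274-152105573 on the plus strand, held 3 matches, in capitals here:
Srxn1: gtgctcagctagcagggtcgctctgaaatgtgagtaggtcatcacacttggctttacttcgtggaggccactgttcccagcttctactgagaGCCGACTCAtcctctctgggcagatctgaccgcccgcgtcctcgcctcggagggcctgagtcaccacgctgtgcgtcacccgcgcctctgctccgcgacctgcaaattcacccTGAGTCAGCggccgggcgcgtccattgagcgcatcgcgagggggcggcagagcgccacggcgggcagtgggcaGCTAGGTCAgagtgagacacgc
The first 2 matches are of TGAGNNNGC, on the minus strand 158 to 150 bases before the start and on the plus strand 45 to 37 bases before it, and the third is of TGACNNNGC on the minus strand, 29 to 37 bases after it. A match of letters is a description and not a bound site.

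The other members with a match each held 1, of TGACNNNGC, shown in capitals in windows of 29 bases read along the strand of the gene. The Nfe2l2 window is chr2:75704885-75704913 on the minus strand, the Gclm window chr3:122245413-122245441 on the plus strand and the Txnrd1 window chr10:82859104-82859132 on the plus strand.
Nfe2l2: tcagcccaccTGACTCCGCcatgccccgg
Gclm: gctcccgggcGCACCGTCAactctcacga
Txnrd1: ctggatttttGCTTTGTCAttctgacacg
These 4 genes did not share a genotype difference: Srxn1 and Gclm were lower in knockout on the standard diet with no overlap, while Nfe2l2 and Txnrd1 overlapped on each diet.

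The enzymes that remove peroxides, Cat, Prdx3 and Gpx1, differed little between genotypes. Cat, the peroxisomal catalase, read 12.87, 12.75 and 12.92 in wild type and 12.65, 12.99 and 12.97 in knockout on the standard diet. Under the high-fat diet the gene stood at 13.02, 13.05 and 13.10 in wild type and 13.11, 13.05 and 13.07 in knockout. The genotypes overlapped on each diet, with differences of 0.02 (SE 0.0891, limma adjusted p = 0.943) and 0.03. The high-fat difference was 0.05 without wild-type replicate 3 and 0.01 without knockout replicate 1. Knockout replicate 1 of the standard diet was the lowest array, and without it the standard-diet difference was 0.13. With each array centred on its median it was -0.06.

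Gpx1, the cytosolic and mitochondrial glutathione peroxidase, read 12.73, 12.68 and 12.78 in wild type and 12.70, 12.65 and 12.61 in knockout on the standard diet. Its high-fat values were 12.86, 12.83 and 12.94 in wild type and 12.78, 12.91 and 12.88 in knockout. The genotypes overlapped on each diet, and knockout differed from wild type by -0.08 (SE 0.0697, limma adjusted p = 0.717) and -0.02. The second was 0.01 without wild-type replicate 3 and 0.02 without knockout replicate 1, both of the high-fat diet.

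Prdx3 encodes the peroxiredoxin of the mitochondrial matrix, the compartment where SIRT3 works. It read 10.65, 10.60 and 10.68 in wild type and 10.53, 10.54 and 10.61 in knockout on the standard diet. High-fat livers gave 10.38, 10.46 and 10.23 in wild type and 9.91, 10.36 and 10.44 in knockout. The genotypes overlapped on each diet, and knockout differed from wild type by -0.08 (SE 0.116, limma adjusted p = 0.815) and -0.12. The second rested on knockout replicate 1 on the high-fat diet, at 9.91, and was 0.04 without it, while without wild-type replicate 3 of that diet it was -0.18.

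Between the diets, Cat and Gpx1 were higher and Prdx3 and Srxn1 were lower on the high-fat diet in both genotypes, and none of these differences passed the test. In wild type, 5.99% of all genes were called between the diets, and in knockout 5.11%, and 0 of 10 members were called in either. Without adjustment p was under 0.05 for 3 of 10 members in wild type, against 22.6% of all genes, and for 3 of 10 in knockout, against 21.6%. These counts lay between 0 and 4 and between 1 and 4 when an array was left out in turn, against 17.4% to 24.1% and 16.9% to 24.6% of all genes. The wild-type count was 0, 1 and 2 without standard-diet wild-type replicates 1, 2 and 3, against 19.3%, 17.6% and 18.2%. It was 1 without wild-type high-fat replicate 2 or 3, against 20.9% and 21.3%. The knockout count was 1 without knockout high-fat replicate 1, against 21.3%. It was 2 without knockout high-fat replicate 2 or 3 or knockout standard-diet replicate 1, against 16.9%, 18.2% and 17.9%. The diets did not overlap for 4 of 10 members in wild type, against 30.3% of genes, and for 6 of 10 in knockout, against 23.8%. The median member difference, high-fat minus standard, was 0.13 in wild type and 0.01 in knockout, beside 0.04 and -0.01 for all genes.

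**Figure D4:**
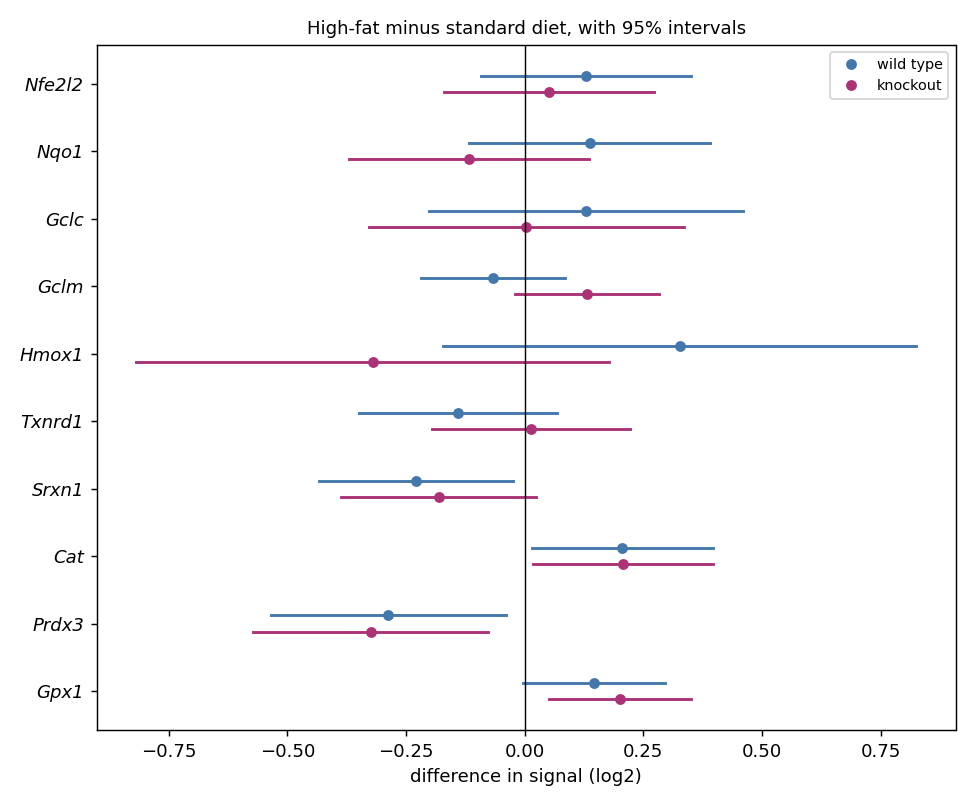
High-fat minus standard diet for each of the 10 genes in wild type and in knockout (log2, horizontal axis); points are limma estimates and bars their unadjusted 95% intervals, 3 arrays a group. Cat and Gpx1 lie above 0 and Prdx3 and Srxn1 below 0 in both genotypes. These comparisons appear to lie across normalization runs.

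Cat differed by 0.21 in wild type (limma adjusted p = 0.185) and by 0.21 in knockout (adjusted p = 0.193). Gpx1 differed by 0.15 (adjusted p = 0.227) and 0.20 (adjusted p = 0.11), again in limma. For each gene every high-fat array lay above every standard-diet array of the same genotype. Without knockout standard-diet replicate 1, the lowest Cat array, the knockout difference of Cat was 0.10 (limma adjusted p = 0.532), less than in wild type. The upper end of the interval for Cat in knockout was 1.32-fold with all arrays. With each array centred on its median, Cat differed by 0.13 in wild type and 0.22 in knockout, and Gpx1 by 0.07 and 0.21.

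Prdx3 differed by -0.29 in wild type (SE 0.116, limma adjusted p = 0.156) and by -0.32 in knockout (limma adjusted p = 0.119), and Srxn1 by -0.23 and -0.18 (limma adjusted p = 0.17 and 0.292). Every high-fat array lay below every standard-diet array of the same genotype for both genes. Without the knockout array at 9.91 the knockout value of Prdx3 was -0.16 (limma adjusted p = 0.3), and the wild-type value, which stayed at -0.29, passed the test in limma (adjusted p = 0.043), the variance being shared over groups. With each array centred on its median, Prdx3 differed by -0.37 in wild type and -0.31 in knockout, and Srxn1 by -0.31 and -0.17.

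The 6 remaining members had no shared direction between the diets. Gclm differed by -0.07 in wild type and 0.13 in knockout, where the diets did not overlap, and Nqo1 by 0.14 and -0.12, the latter -0.02 without knockout standard-diet replicate 1. Without wild-type high-fat replicate 3 the wild-type value of Gclm was -0.04. Hmox1 differed by 0.33 in wild type, and by -0.08 without the array at 9.15, and by -0.32 in knockout with no overlap (limma adjusted p = 0.461, and 0.0645 without that array). Nfe2l2, Gclc and Txnrd1 lay between -0.14 and 0.13 in either genotype, and Gclc in wild type was 0.26 without wild-type high-fat replicate 3.

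The genotype difference on the high-fat diet minus that on the standard diet, the interaction, was not called for any member, as for any of the 19938 genes (0%). Unadjusted p was under 0.05 for 0 of 10 members, against 4.73% of all genes. When an array was left out in turn it was so for 0 to 2, against 3.47% to 10.4%. The largest in size was Hmox1, at -0.65 (SE 0.33, limma adjusted p = 0.945), which was -0.24 without wild-type replicate 3 on the high-fat diet. Nqo1 stood at -0.25, and at -0.16 without knockout standard-diet replicate 1, and Gclm at 0.20.

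The 10 members did not move as a block among livers of 1 diet. Over the 12 arrays, each taken relative to the mean of its diet, 25 of the 45 pairs of members had a Pearson r above 0, with a median of 0.07. The highest r, 0.77, was between Gclm and Txnrd1, and the lowest, -0.49, between Gclm and Hmox1. These are descriptions over arrays that appear to share 2 normalization runs. The genes most like Nqo1 by this measure were Obp1a, Trim10, Rilpl2, Ell3 and Lta, with r between 0.89 and 0.90 over 12 arrays. Those most like Nfe2l2 were Mael (r = 0.91), Glce, Sh2d2a, Stard4 and Depdc5 (r = 0.84). None of these is another member, and the reason for their likeness was not tested.

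The wider antioxidant network held no call between genotypes either. Of 132 measured genes in 9 lists, which held NRF2 regulators, glutathione, thioredoxin, superoxide, NADPH, detoxification, haem and iron, ATF4 and heat shock genes, 0 were called between genotypes on either diet, averaged over diets or in the interaction. At an unadjusted p under 0.05 there were 10 of 132 on the standard diet (7.58%), against 9.73% of all genes. With the high-fat diet there were 3 of 132 (2.27%), against 2.86%. Averaged over diets there were 18 (13.6%), against 6.64%, and only this count lay above the share of all genes. The medians of the 132 differences were 0.01, -0.02 and -0.003, beside 0.04, -0.02 and 0.01 for all genes.

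**Figure D5:**
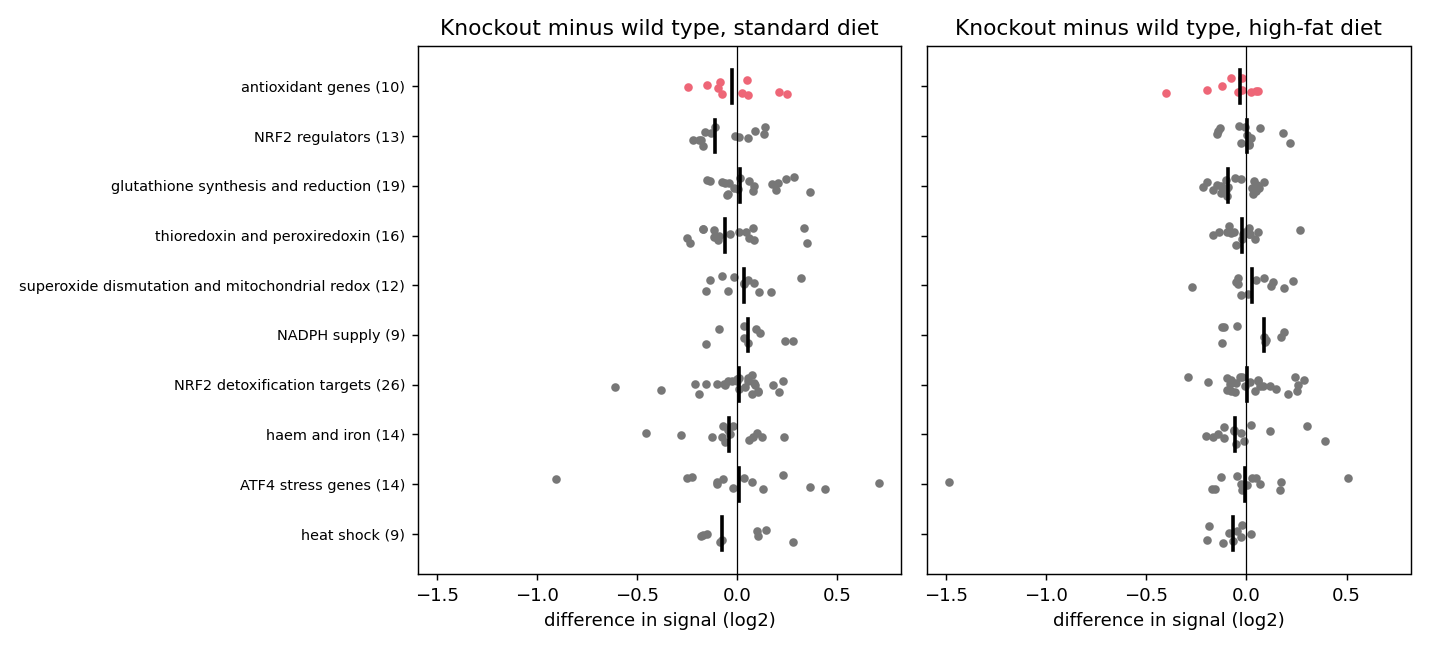
Knockout minus wild type (log2, horizontal axis) for every measured gene of the 10-gene panel and of each wider list, on the standard and the high-fat diet; points are genes and vertical ticks are list medians. The list medians lie close to the line at 0, and no point was called.

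Some genes of these lists had the smallest p of their list averaged over diets, and none passed the test. Among NRF2 regulators, Btrc, part of the ubiquitin ligase that acts on NRF2 after phosphorylation by GSK3, stood at -0.17 (SE 0.0656), and Sqstm1, the autophagy receptor that competes with NRF2 for KEAP1, at -0.13 (limma adjusted p = 0.739 for each). Keap1 itself was 0.06 on the standard and 0.01 on the high-fat diet. Sod2, the mitochondrial superoxide dismutase whose protein SIRT3 is known to deacetylate, stood at -0.05 (SE 0.0814) and 0.12 on these diets, and was singled out for that role after its values were seen, like Keap1. Among ATF4 stress genes, Asns, asparagine synthetase, stood at -1.19 (SE 0.315) and Gadd45a at 0.32 (SE 0.0906) averaged over diets, with the same adjusted p. On the high-fat diet the genotypes of Asns overlapped. In the other lists the genes with the smallest p averaged over diets were Gpx3 at 0.21, Txnip at 0.30, Ppargc1b at 0.25 and Mthfd1l at 0.23. The rest were Ugt2b35 at -0.35, Hamp2 at 0.27 and Hspd1 at -0.10, and limma adjusted p was between 0.739 and 0.756 for all of these.

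Between the diets, whose values appear to come from separate runs, 8 of the 132 genes (6.06%) were called in each genotype. This share lay near that of all genes (5.99% and 5.11%). Of the 8, 7 were higher and 1 lower on the high-fat diet in wild type, and 2 higher and 6 lower in knockout. Hmox2, the constitutive haem oxygenase, was lower on the high-fat diet in both, by -0.48 in wild type (limma adjusted p = 0.00592) and -0.32 in knockout (limma adjusted p = 0.0425), and Nqo2, a quinone reductase related to Nqo1, was higher, by 0.50 and 0.45. Also higher in wild type were Cbr3, a carbonyl reductase, by 0.54, Abcc3, a conjugate exporter, by 0.33, and Mafk, a small MAF partner of NRF2, by 0.48. The other 3 were Ppargc1b, a coactivator of mitochondrial genes, at 0.52, Sod3, the extracellular superoxide dismutase, at 0.46, and Vldlr, a lipoprotein receptor, at 0.61. In knockout Cbs and Cth, the enzymes of the transsulfuration route that supplies cysteine for glutathione, fell by 0.60 and 0.43 (limma adjusted p = 0.00361 and 0.0331), and Gpx3, the secreted glutathione peroxidase, by 0.46. Gstm4, a glutathione transferase, fell there by 0.39 and the stress gene Gadd45b by 1.30, while Gadd45a rose by 0.55. Whether these diet differences differed between genotypes was tested by the interaction, which called none of them; for Cbs it was -0.46 (SE 0.132, unadjusted p = 0.00354 and adjusted p = 0.945 in limma).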

How the data were processed

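The deposited values are on the log2 scale, with a column for each array, and come from the authors' RMA in Affymetrix Expression Console, per the submitters' processing notes; versions and options are not given in the sources used here. RMA corrects background, normalizes the arrays of a run together and summarizes probes. Of 35557 probe sets, 335 lacked a value on all standard-diet arrays only. Arrays of different diets shared a median of 0 identical values, against 20 within the standard and 7 within the high-fat diet, which is why separate runs are taken here.

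Of the probe sets, 21789 had 1 gene symbol, 1621 several and 12147 were not listed; names come from GEO's platform annotation. For the 999 genes with several sets the brightest was kept. Array medians lay between 6.34 and 6.47, and the number of arrays limits the precision. limma 3.58.1 (R 4.3.3) fitted 1 mean per group to all 12 arrays, with a trended prior (median 14.5 total degrees of freedom), and was tested on simulated data. Intervals are unadjusted, at 95%. The rule for named genes was: all 10 members; of each other list up to 4 called genes per comparison, otherwise 1 or 2 with the smallest p; and the 5 genes most like Nqo1 and Nfe2l2. The members and lists were chosen with earlier results of these data known. Alternatives were no intensity trend, robust moderation, the compared groups only, a replicate block, no genes under the 30th percentile, all probe sets, quantile normalization, median centring, and leaving out each array or the 2 arrays that stand apart. Figures were drawn with matplotlib 3.10.9.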

Additional observations from a re-analysis of the deposited data

Results flagged for a closer look

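For 3 of the 10 genes every knockout array lay on one side of the wild-type mean of its diet on the standard diet and on the opposite side on the high-fat diet. The share of all genes with this pattern was not counted, and the 3 genes were picked by it. The genotype difference on the high-fat diet minus that on the standard diet was -0.65 for Hmox1, -0.25 for Nqo1 and 0.20 for Gclm. The test of this difference itself passed for none of them (limma adjusted p of 0.945 or more). The Hmox1 knockout arrays lay 0.29, 0.22 and 0.23 above the wild-type mean on the standard diet and at -0.30, -0.53 and -0.36 on the high-fat diet, where wild-type replicate 3, at 9.15, sets the mean. Without that array the Hmox1 value was -0.24. The Gclm knockout arrays lay at -0.13, -0.20 and -0.12 on the standard diet and at 0.02, 0.07 and 0.06 on the high-fat diet. The Nqo1 arrays lay at 0.40, 0.02 and 0.21 and at -0.03, -0.07 and -0.03. Without knockout standard-diet replicate 1, the highest Nqo1 array of the 12, the Nqo1 value was -0.16.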

How the results depend on the processing

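The 60 member results were recomputed under 9 other settings and without each of the 12 arrays, except that the compared groups only were not fitted for the average over diets and the interaction, which use all groups. Of 1240 alternative values 72 had another sign, none of them called. Prdx3 alone was called under an alternative: between the diets in knockout with quantile normalization (1 member, -0.31, limma adjusted p = 0.042), and in wild type without knockout high-fat replicate 1 (adjusted p = 0.043; 0 to 1 members when an array was left out). Over all genes, the 1 call between genotypes on the standard diet became 0 with robust moderation, with the compared groups only, with all probe sets and without both arrays that stand apart, and 0 to 6 when an array was left out. On the high-fat diet the count was 1 without both arrays and 0 to 1 when an array was left out, averaged over diets 0 to 2, and in the interaction 0 to 1. Between the diets the 1194 calls in wild type became 533 without dim genes, 582 with all probe sets, and 389 to 1322 when an array was left out. The 1018 calls in knockout became 381 with the compared groups only, 513 without dim genes, 498 with all probe sets, 1532 with quantile normalization, 625 without both arrays and 360 to 1286 when an array was left out. The cause was not tested. With the replicate number as a replicate block, the calls were 1, 0, 0, 1158, 1025 and 0 genes, in the order standard diet, high-fat diet, averaged, wild type, knockout and interaction, with 0 members in each. The labels do not say that numbers pair the samples. Of 18 same-numbered pairs 5 deviated together (r over 0.1, range -0.27 to 0.41). For 7 of the 12 arrays the closest array of another group had the same number. Whether the numbers pair the samples was not tested, so the block is not read as a pairing here.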
